A study of Arabidopsis thaliana with 6 samples.

Results

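ARR15 and ARR16 are the 2 type-A response regulators of Arabidopsis thaliana that could be followed by name in this array series. They were taken by gene name, as the single-gene probe sets 262212_at (ARR15, locus AT1G74890 on chromosome 1) and 266078_at (ARR16, locus AT2G40670 on chromosome 2, listed as RR16 in the annotation). Each gene had 1 probe set, so the 2 genes stand for 2 of the 22746 probe sets tested on each array. The signals were read beside the probe set of EBE (locus AT5G61890 on chromosome 5), whose induction is the treatment of the study. The question of the series was which genes respond early to EBE, an AP2/ERF transcription factor.

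Shoot RNA of 3-week-old seedlings was hybridized to 6 Affymetrix ATH1 arrays, 3 of EBE-XVE line 14 and 3 of WT, the Col-0 wild type. EBE-XVE plants are of Col-0 background and carry EBE in an estradiol-inducible overexpression system. Both genotypes had been shaken in liquid MS medium for 16 h and were then given 2 µM β-estradiol for 45 min, so estradiol itself is shared by all 6 arrays. No seedlings without estradiol and no further EBE-XVE line were analysed here, and a difference between the genotypes cannot be told apart from a difference of line 14 itself. The labels call the replicates biological, and the same replicate number in the 2 genotypes is called a pair below. For replicates 2 and 3 this pairing rests on the number alone.

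Cytokinin is perceived by membrane histidine kinases, and the signal passes as a phosphoryl group through phosphotransfer proteins to response regulators. Type-B response regulators bind DNA and activate transcription. Type-A response regulators, among them ARR15 and ARR16, hold a receiver domain without a DNA-binding domain. Their transcripts rise quickly after cytokinin, without new protein synthesis, and their proteins dampen cytokinin signalling. In the shoot apex, ARR15 and its close relative ARR7 are known as regulators of the meristem. ARR16 is known from the stomatal lineage of leaves and, like ARR15, from roots.

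EBE was raised in the EBE-XVE arrays of replicates 1 and 2. Its log2 signal was 8.55, 7.21 and 3.19 in EBE-XVE replicates 1, 2 and 3, and 4.26, 2.98 and 3.02 in WT replicates 1, 2 and 3. EBE-XVE minus WT was therefore 4.29 in pair 1, 4.23 in pair 2 and 0.17 in pair 3. The array labelled EBE-XVE replicate 3 thus lay close to the WT arrays in EBE signal, and it was the sole EBE-XVE array to overlap with them.

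ARR15 read lower in EBE-XVE than in WT, by more than 2-fold in the 2 pairs in which EBE was raised and by hardly anything in the third. The log2 signal of ARR15 was 4.97, 4.46 and 5.76 in EBE-XVE replicates 1, 2 and 3. In WT it was 6.22, 5.89 and 5.83 in replicates 1, 2 and 3. The 3 EBE-XVE values all lay below the 3 WT values, but the highest of them, that of the array labelled EBE-XVE replicate 3, was just 0.07 below the lowest WT value. Of all probe sets, 0.892% had their 3 EBE-XVE values below their 3 WT values. This separation did not hold on another scale, since after quantile normalization the gap turned to -0.42.

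Within pairs, ARR15 differed by -1.25 in pair 1, which is 2.38-fold lower in EBE-XVE. The difference was -1.43 in pair 2, or 2.69-fold lower. In pair 3 it was -0.07. Of all probe sets, 2.23% lay at or below the ARR15 difference in pair 1, 0.233% in pair 2 and 41.8% in pair 3. ARR15 thus stood near the low edge of all differences in pairs 1 and 2 and inside the bulk in pair 3. Such shares, here and below, are over probe sets of every signal level, dim ones included. Shares among probe sets of like signal were not taken. A difference below 0 in all 3 pairs, of any size, was found for 6.23% of probe sets.

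**Figure D1:**
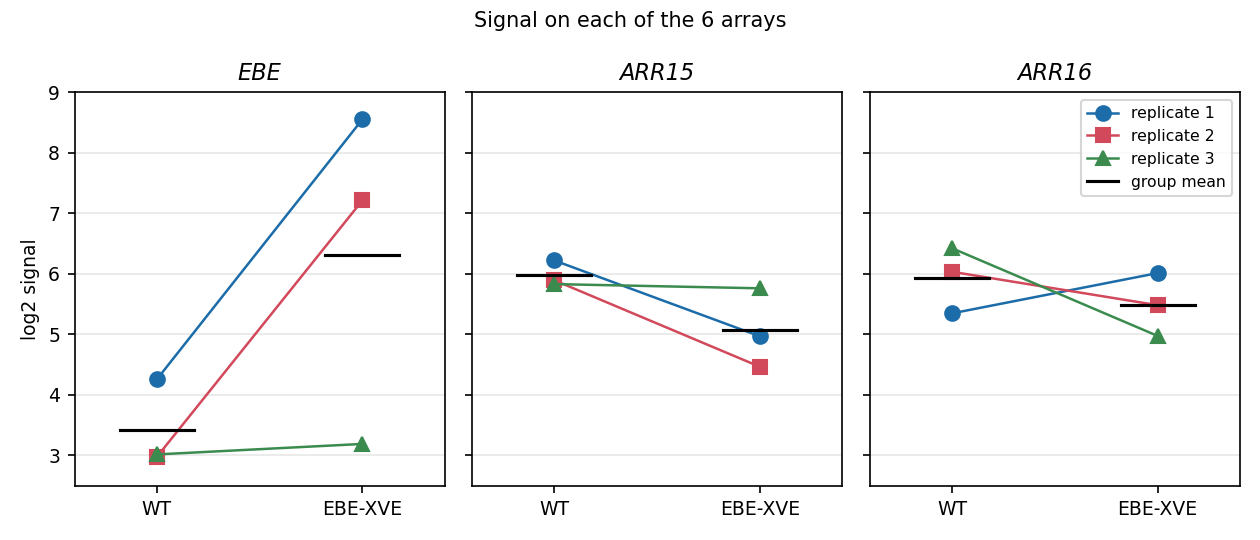
Log2 signal (vertical axis) of EBE, ARR15 and ARR16 on each array, with WT on the left and EBE-XVE on the right of each panel. Points are single arrays, lines join the arrays of 1 replicate number, and black bars are group means. ARR15 runs down in replicates 1 and 2 and is nearly level in replicate 3, as EBE is, whereas ARR16 runs up in replicate 1 and down in replicates 2 and 3.

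ARR15 averaged 5.98 ± 0.21 (SD, n = 3) on the WT arrays. Its mean on the EBE-XVE arrays was 5.06 ± 0.65 (SD, n = 3). The 3 WT arrays spanned 0.39 log2 units, and the 3 EBE-XVE arrays ran from 4.46 to 5.76. The SD of ARR15 among the WT arrays was close to the median SD of all probe sets (0.25), and its SD among the EBE-XVE arrays was above the median there (0.30). An SD among the EBE-XVE arrays at least that of ARR15 was found for 22.2% of probe sets. EBE-XVE minus WT was -0.92 (SE 0.40), with a 95% confidence interval from -1.91 to 0.07. It did not pass in limma's moderated test over all probe sets (unadjusted p = 0.0642, adjusted p = 1.00). In this fit 0% of all probe sets were called lower and 0% higher, and 79 had an unadjusted p under 0.05. No probe set was thus separated from the spread between arrays in this fit. The fit was on group alone, so shifts shared by arrays of the same replicate number stayed in that spread. The 79 are a smaller share of the 22746 probe sets than 0.05, the share due with no difference anywhere. Unadjusted p-values thus ran high in this fit. With the replicate number as a block, the ARR15 interval ran from -1.70 to -0.13 (limma, unadjusted p = 0.0296). ARR15 did not pass there either, and no probe set was called. An unadjusted p under 0.05 was found for 462, again a smaller share than 0.05.

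ARR16 had no common direction over the pairs. Its log2 signal was 6.01, 5.48 and 4.97 in EBE-XVE replicates 1, 2 and 3. The WT arrays read 5.35, 6.03 and 6.42 in replicates 1, 2 and 3. The groups overlapped, with the lowest WT value, in replicate 1, below the EBE-XVE values of replicates 1 and 2. ARR16 differed by 0.66 in pair 1, or 1.59-fold higher in EBE-XVE, by -0.55 in pair 2 and by -1.45 in pair 3, or 2.73-fold lower.

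The pair with the strongest ARR16 difference was therefore the pair in which EBE hardly differed. At or below these differences lay 0.523% of all probe sets in pair 3 and 2.86% in pair 2, while 4.13% lay at or above the ARR16 difference in pair 1. In each pair ARR16 thus stood toward an edge of the distribution, at the upper one in pair 1 and at the lower one in pairs 2 and 3. ARR16 averaged 5.93 ± 0.54 (SD, n = 3) on the WT arrays and 5.49 ± 0.52 (SD, n = 3) on those of EBE-XVE. The genotype difference of -0.44 (SE 0.43) had a 95% confidence interval from -1.50 to 0.61 and did not pass in limma (unadjusted p = 0.340, adjusted p = 1.00). Leaving out 1 array moved it to -0.74 without WT replicate 1, -0.71 without EBE-XVE replicate 1, -0.20 without WT replicate 3 and -0.19 without EBE-XVE replicate 3. Unlike ARR15, ARR16 already spread widely among the WT arrays, over 1.08 log2 units.

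Differences of at least 2-fold give a common measure for both genes. Such a lower signal in EBE-XVE was found for 3.53% of all probe sets in pair 1, 0.659% in pair 2 and 1.21% in pair 3. ARR15 was among them in pairs 1 and 2, and ARR16 in pair 3. Both pair 1 and pair 2 were at least 2-fold lower for 63 probe sets, or 0.277%, of which ARR15 was 1. The corresponding shares were 0.176% for pairs 1 and 3 and 0.0879% for pairs 2 and 3, and neither member belonged to those. Each pair holds 1 array per genotype, so the differences between pairs were not tested, and with 3 pairs a relation of ARR15 to the EBE signal was not tested either.

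**Figure D2:**
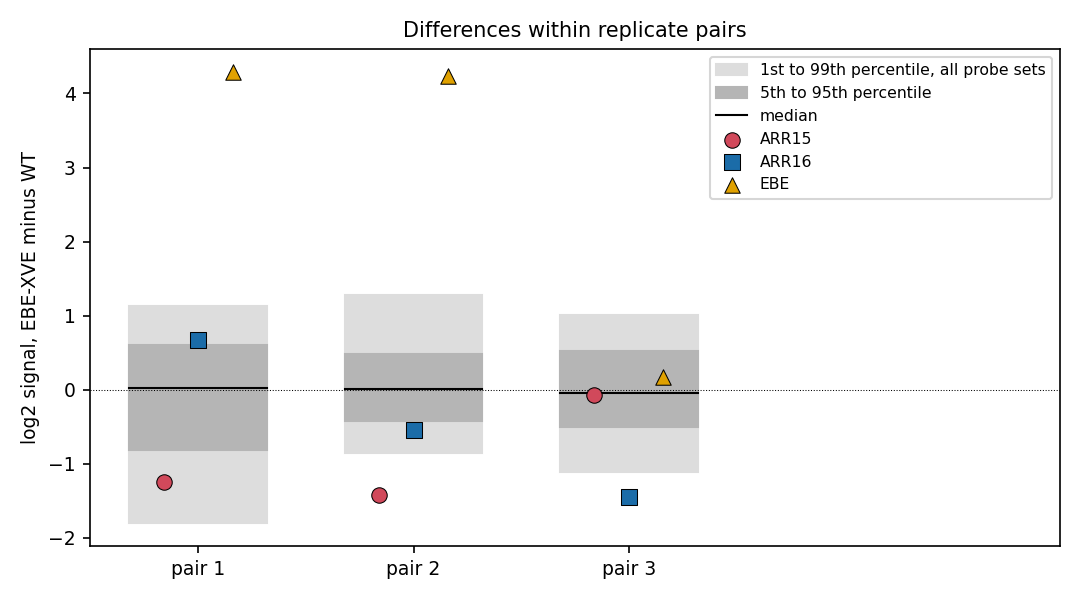
Log2 signal of EBE-XVE minus WT (vertical axis) within each replicate pair for ARR15 (circles), ARR16 (squares) and EBE (triangles). Grey boxes span the 1st to 99th and the 5th to 95th percentile of all 22746 probe sets, and the black line is their median. ARR15 lies below the dark box at -1.25 and -1.43 in pairs 1 and 2 and at the median line in pair 3, while ARR16 is above the dark box at 0.66 in pair 1 and below the light box at -1.45 in pair 3.

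The responses of the 2 genes were set against each other directly. The genotype difference of ARR16 exceeded that of ARR15 by 0.47 log2 units. An exact permutation test of the group labels gave p = 0.50 (2-sided, 3 arrays against 3), where the smallest p the design allows is 0.10. Paired by replicate, the exact permutation p was 0.75, with a smallest possible p of 0.25. The value ran from 0.06 without WT replicate 1 to 1.08 without EBE-XVE replicate 3, so it hung on single arrays. A difference in response between ARR15 and ARR16 was not detectable with these arrays. Their own levels were not compared, since the probes of 2 genes bind with different strength.

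The place of each probe set within its own array gives a measure that does not depend on the scale of that array. The percentile used here is the share of the other probe sets of the array with a lower signal, and its size depends on the probes as well as on the transcript. ARR15 stood at the 47.7th, 49.8th and 58.9th percentile in EBE-XVE replicates 1, 2 and 3. In WT it stood at the 55.5th, 60.5th and 59.5th. From the brightest probe set down, these were ranks 11905, 11412 and 9354 in EBE-XVE and 10116, 8977 and 9202 in WT. On this measure the groups overlapped, because EBE-XVE replicate 3 stood above WT replicate 1.

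Within pairs 1, 2 and 3 the ARR15 percentile differed by -7.87, -10.7 and -0.67 points. The means differed by -6.41 points, with an exact permutation p of 0.20 (2-sided, n = 3 per group), and by -4.18 without EBE-XVE replicate 1 and -9.79 without EBE-XVE replicate 3. ARR16 stood at the 54.4th, 56.8th and 53.3rd percentile in EBE-XVE and at the 49.2nd, 61.9th and 64.8th in WT, in replicates 1, 2 and 3. Its ranks were 10381, 9825 and 10613 in EBE-XVE and 11560, 8675 and 8012 in WT. The 3 EBE-XVE arrays thus lay within 3.46 points of each other, and the 3 WT arrays spread over 15.6. ARR16 differed by 5.18, -5.06 and -11.4 points within pairs 1, 2 and 3. The means differed by -3.77 points (exact permutation p = 0.50, 2-sided, n = 3 per group), and by -8.48 without WT replicate 1, -2.14 without WT replicate 2 and -0.68 without WT replicate 3. EBE moved from the 43.5th to the 80.1st percentile in pair 1, from the 37.2nd to the 73.0th in pair 2, and from the 36.9th to the 41.2nd in pair 3.

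**Figure D3:**
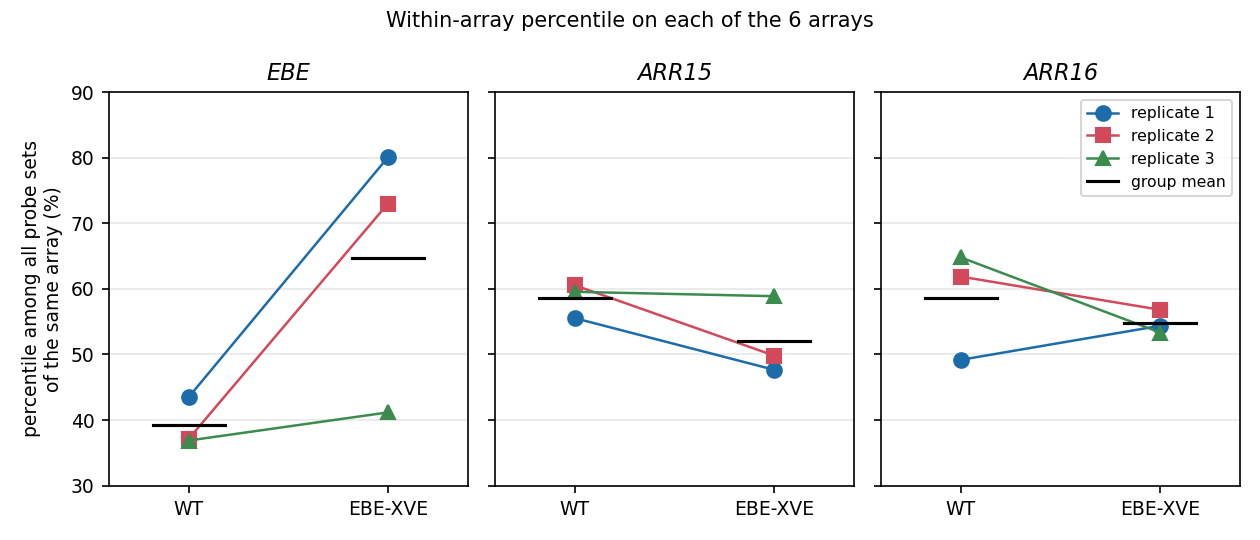
Percentile of EBE, ARR15 and ARR16 among all probe sets of the same array (vertical axis, in percent) for WT and EBE-XVE. Points are arrays, lines join the arrays of 1 replicate number, and black bars are group means. ARR16 stands at 53.3 to 56.8 on the EBE-XVE arrays and at 49.2 to 64.8 on the WT arrays, with WT replicate 1 lowest.

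Replicate 1 of both genotypes stood apart from the other arrays over the whole table. Its arrays had median log2 signals of 5.38 and 5.47, against 4.44 to 4.497 on the other 4, and 59.7% of all probe sets were called between replicate 1 and the rest in limma. This split of the arrays was chosen with that shift known. ARR15 and ARR16 were not called: replicate 1 minus replicates 2 and 3 was 0.11 (SE 0.38) for ARR15 and -0.05 (SE 0.41) for ARR16, with adjusted p-values of 0.83 and 0.93. After quantile normalization, which takes out the higher median of replicate 1, these values were -0.78 (SE 0.39) and -0.97 (SE 0.45), with adjusted p-values of 0.15 and 0.13. On that scale 59.3% of all probe sets were still called, so the shift of replicate 1 was not removed by it. The differences within pairs changed little with the scale. ARR15 was at -1.20, -1.44 and -0.08 and ARR16 at 0.78, -0.59 and -1.36 in pairs 1, 2 and 3 after quantile normalization.

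In replicates 2 and 3 alone, EBE-XVE minus WT was -0.9995 (SE 0.26) for ARR16 and -0.75 (SE 0.45) for ARR15, and neither passed in limma (adjusted p = 0.91 for each). The 95% interval of ARR16 ran from -1.67 to -0.33 there (limma, unadjusted p = 0.0130), and that of ARR15 from -1.92 to 0.43 (unadjusted p = 0.160). In that fit 539 probe sets had an unadjusted p under 0.05. Within replicate 1 there is 1 array per genotype and no test. With replicate 1 as a block and the third EBE-XVE array left out, the ARR15 difference was -1.34 (SE 0.16), or 2.52-fold lower, and that of ARR16 was -0.14 (SE 0.37). Neither passed (adjusted p = 0.18 and 0.95 in limma). That array was set aside for its EBE signal, so these values describe the remaining arrays and are no independent test.

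**Figure D4:**
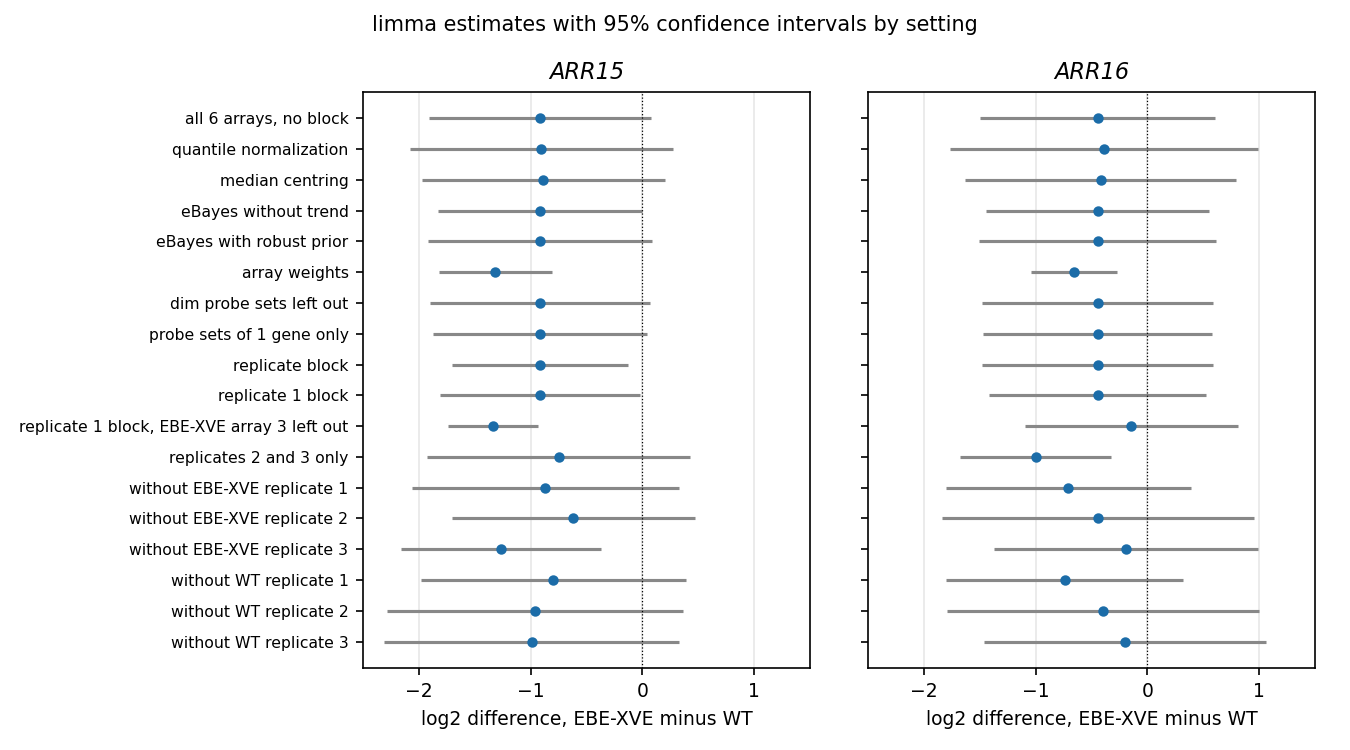
Log2 difference of EBE-XVE minus WT (horizontal axis) for ARR15 and ARR16 under each setting of the limma fit. Points are estimates and grey lines 95% confidence intervals. All points lie below 0, from -1.34 to -0.62 for ARR15 and from -0.9995 to -0.14 for ARR16, and no setting gave either gene an adjusted p under 0.05.

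Few other genes of the cytokinin pathway could be named on the arrays. Of 10 type-A response regulators listed, ARR15 and ARR16 were the 2 with a named probe set. ARR7, the closest relative of ARR15, and ARR17, that of ARR16, were among the 8 not analysed here. Of 64 further listed genes, for receptors, phosphotransfer proteins, type-B and type-C regulators, cytokinin response factors, cytokinin synthesis and breakdown and related functions, 3 had a named probe set. A gene is called measured here and below where a probe set carried its symbol alone. Listed genes were not looked for among the probe sets with several symbols or none, so the gap is one of annotation. None of the 3 passed in limma, and their median difference was -0.01, beside -0.004 over all probe sets.

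The 3 were ARR18 and ARR19, both type-B regulators, and ARR22, a type-C regulator. ARR18 differed by -0.01 (SE 0.08), ARR19 by -0.01 (SE 0.21) and ARR22 by -0.04 (SE 0.07). Their signals of 2.09 to 2.98 stayed between the 8.38th and 32.6th percentile of the arrays, and no difference within a pair went beyond -0.14. RR23, another response regulator, which was added after its name had been seen in the annotation, differed by 0.03, 0.02 and -0.07 in pairs 1, 2 and 3. These 4 genes were thus dim on all arrays, while ARR15 and ARR16 were the listed cytokinin genes with a signal near the middle of the distribution. ERF112, a relative of EBE in the same ERF group, differed by -0.995, 0.01 and 0.10 in pairs 1, 2 and 3, the first from a single high reading of 3.42 in WT replicate 1.

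Organ and cell type markers were read beside the 2 genes. In bulk tissue, fewer cells of a type and less transcript per cell cannot be told apart. Of 5 photosynthetic markers of the shoot, 2 were measured, LHCB4.1 and PSAN, and both stood above the 98th percentile on every array. Their signals were summed on the linear scale, and the log2 of that sum was 13.65 to 14.01 in EBE-XVE and 13.91 to 14.47 in WT. For PSAN, which encodes a subunit of photosystem I, the differences were -0.82, -0.55 and 0.27 in pairs 1, 2 and 3, and for LHCB4.1, a light-harvesting protein gene, they were -0.48, -0.17 and 0.01. Both were thus below WT in pairs 1 and 2, the pairs in which ARR15 was more than 2-fold lower, and their part in the ARR15 values was not tested.

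Of 7 root markers 3 were measured. The log2 of their summed linear signal was 8.78 to 12.14 in EBE-XVE and 8.61 to 12.26 in WT. PYK10, a β-glucosidase gene of roots, made up nearly all of that sum. It was bright in replicate 1, at 12.14 in EBE-XVE and 12.26 in WT, where the other 4 arrays read 8.58 to 9.21. EXPA7 and EXPA18, expansin genes of root hairs, stayed below the 10th percentile on every array. PYK10 differed by -0.11, 0.17 and 0.40 within pairs 1, 2 and 3, in which ARR15 differed by -1.25, -1.43 and -0.07. The part of root tissue in the ARR15 and ARR16 values was not tested.

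Of 6 stomatal lineage markers 3 were measured. The log2 of their summed linear signal was 5.75 to 6.52 in EBE-XVE and 5.22 to 6.09 in WT, and most of that sum came from FAMA on every array. FAMA, which promotes guard cell fate, read 6.01, 5.36 and 5.91 in EBE-XVE and 5.52, 4.602 and 4.62 in WT replicates 1, 2 and 3. It differed by 0.48, 0.75 and 1.297 within pairs and by 0.85 (SE 0.38) between means, and it did not pass in limma (adjusted p = 1.00). FAMA was thus above WT in every pair, as were 8.23% of all probe sets, while ARR16 was above WT in pair 1 and below it in pairs 2 and 3. SPCH, which starts the lineage, differed by 0.35, 0.01 and -0.16, and MUTE by 0.08, 0.02 and -0.05. MUTE was dim, between the 9.40th and 13.8th percentile on all arrays. CLV3, the stem cell peptide gene and the 1 measured of 4 meristem markers, read 1.98 to 2.09 on all arrays, near the bottom of the range. The part of these cell types in the ARR15 and ARR16 values was not tested.

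The genes with the most similar profile were found by the root-mean-square distance between log2 signals over the 6 arrays, each gene centred on its own mean. The comparison ran over the probe sets with 1 gene symbol, and 5 genes were taken for each member. All points share the same arrays and the replicate 1 shift, so the distances and correlations describe these arrays only.

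Nearest to ARR15 was CCL, a gene for a short-lived, clock-controlled transcript, at a distance of 0.11 log2 units and with Pearson's r of 0.99 over the 6 arrays. CCL differed by -1.19, -1.16 and -0.09 in pairs 1, 2 and 3. ATLP-1, a thaumatin-like gene, followed at 0.15, with differences of -1.19, -0.99 and -0.12. AT3G44630 (0.20), AT1G65230 (0.20) and AT5G66650 (0.21) completed the 5. The genes were picked for their likeness to ARR15, so their differences describe how close the nearest profiles came.

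Nearest to ARR16 was AT5G46710, at a distance of 0.19 log2 units and with r of 0.94 over the 6 arrays. It differed by 0.49, -0.21 and -1.10 in pairs 1, 2 and 3. The next were AT5G54130 (0.23), AT1G12020 (0.23), AT1G16520 (0.24) and AT1G56530 (0.25), with r between 0.88 and 0.94. These genes, too, were picked for their likeness.

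**Figure D5:**
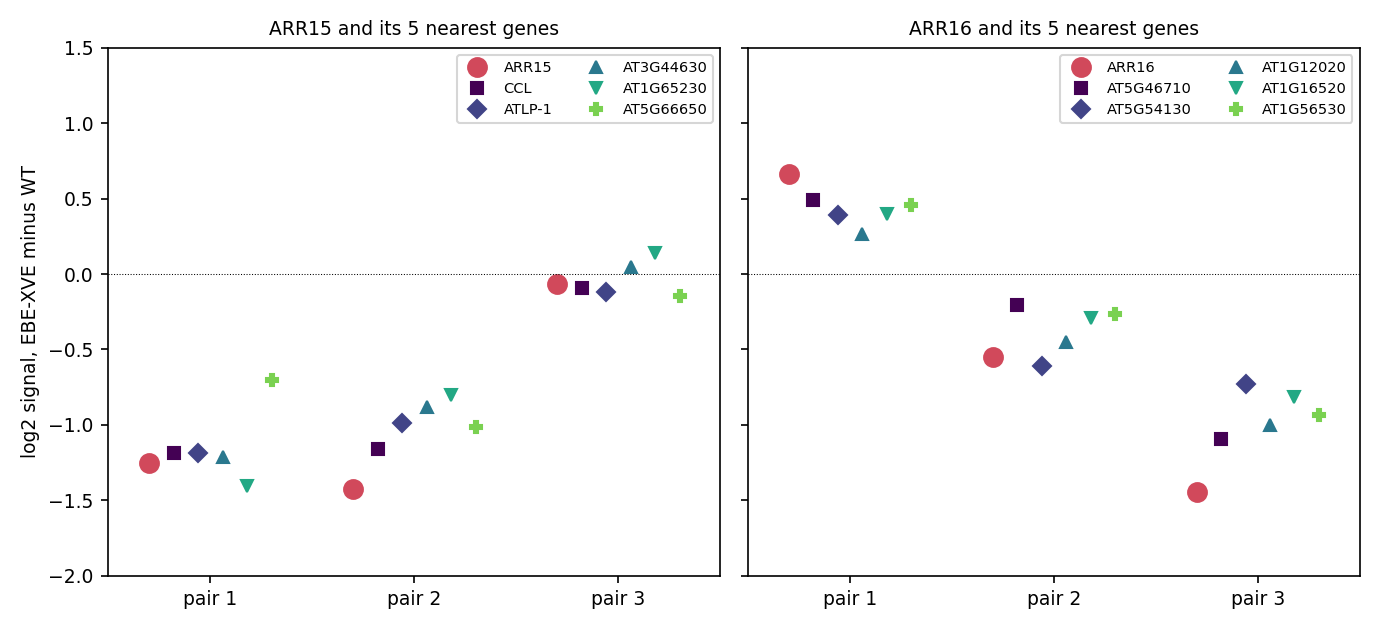
Log2 signal of EBE-XVE minus WT (vertical axis) in each pair for ARR15 (left) and ARR16 (right), shown as large circles, and for the 5 genes with the nearest profile to each, shown as small symbols. Chosen for this likeness, the 5 genes near ARR15 lie at -1.41 to -0.70 in pair 1, and the 5 near ARR16 at -1.10 to -0.73 in pair 3.

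Genes next to each member on its chromosome were read in the same way. Of the 6 protein-coding genes flanking ARR15, 3 on each side, 4 had a named probe set, and their differences within pairs ran from -0.54 to 0.82. AT1G74910, the second gene on one side, was below WT in pairs 1 and 2 like ARR15, though by less, at -0.54, -0.19 and 0.20 in pairs 1, 2 and 3. OTP43, the direct neighbour with a probe set and a mitochondrial splicing factor gene, differed by 0.09, -0.21 and -0.03. Of the 6 genes flanking ARR16, 4 had a named probe set, with differences from -0.17 to 0.74.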

How the data were processed

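The deposited table of the 6 single-colour arrays holds 1 value per probe set and array, taken as log2 signal from its range, its log base being unstated in the sources used here. Per the submitters' processing notes GCRMA and RMA were used, without versions or roles. Of 22810 probe sets, 64 controls were left out. Of the 22746 tested, 13513 had 1 gene symbol, 503 several and 8730 none, and 13508 were matched to 13350 loci through RefSeq's TAIR10.1 gene table, which served for names and neighbours only. Groups and replicates came from sample titles.

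EBE-XVE was compared with WT over all probe sets by limma 3.58.1 in R 4.3.3 (lmFit on group alone, then eBayes with a trend of variance on mean, and Benjamini-Hochberg adjustment), with a 2-sided adjusted p under 0.05 as a call. The fit was tested on simulated data. Single values were tested by exact permutation over arrays. Array number limits the precision. The members, gene lists, marker lists and alternatives were chosen with earlier results of these data known. EBE, ARR15, ARR16, all measured genes of the lists and the 5 nearest profiles per member were named. The gap between groups under other scales, the flanking genes and RR23 were added after the data were seen.

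Deviations from group means correlated at 0.79, 0.54 and 0.58 for same-numbered arrays 1, 2 and 3, and the numbers were treated as pairs. The crossed pairs of replicates 2 and 3 correlated as highly (0.55 and 0.60), so the correlations bear out the pairing of replicate 1 only. Pairs 2 and 3 rest on the replicate numbers. Alternatives changed scaling, variance prior, weights, filters, blocks and arrays.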

Additional observations from a re-analysis of the deposited data

How the results depend on the processing

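The differences of ARR15 and ARR16 kept their direction and passed under none of their 17 alternatives each. ARR15 ranged from -1.34 to -0.62 and ARR16 from -0.9995 to -0.14, with adjusted p-values from 0.0659 and 0.13, both under array weights, to 1.00. With each array left out they ran from -1.27 to -0.62 and from -0.74 to -0.19. With a replicate block the differences stayed at -0.92 (SE 0.31) and -0.44 (SE 0.41), both with an adjusted p of 1.00, and no call changed under that block. The EBE difference of 2.90 passed at 4.25 (adjusted p = 0.0316) with replicate 1 as a block and the array labelled EBE-XVE replicate 3 left out, which itself was chosen by its EBE signal, and in no other alternative (1.78 to 4.46 with each array left out). The number of probe sets called was 0 under 15 of 18 alternatives. It was 39 with array weights, 1 with the replicate 1 block and that array left out, and 3 with replicates 2 and 3 only. The array weights were 8.41 and 7.11 for replicate 2 of EBE-XVE and WT, and 0.11 for each replicate 1 array. For replicate 3 they were 0.70 in EBE-XVE and 1.91 in WT, so the values under array weights rest mostly on pair 2. The gap of 0.07 between the ARR15 values of the groups turned to -0.42 with quantile normalization and to -0.55 with median centring. Percentile differences ran from -9.79 to -4.18 for ARR15 and from -8.48 to -0.68 for ARR16 with each array left out, and the exact tests could not reach 0.05 in any of these. The cause was not tested for any shift. Background per probe set was not measured, which limits what dim signals show.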
